A study of Mus musculus with 12 samples.

Results

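The transcriptomes of mouse oocytes without mitofusin 1 (Mfn1-/-) were set directly against those of oocytes without mitofusin 2 (Mfn2-/-). The comparison used 6 of the 12 RNA-sequencing libraries of the series, chosen by genotype, 3 Mfn1-/- pools and 3 Mfn2-/- pools, and every one of the 11385 genes in the count table. Each pool held 50 germinal-vesicle oocytes, which are arrested in prophase of the first meiotic division. They came from unprimed females, without hormone injection, aged 21 to 23 days, and their cumulus cells had been stripped off by pipetting. All mice were of strain C57BL/6J. The remaining libraries, 3 Mfn1&2-/- pools without both mitofusins and 3 wild-type (WT) pools, entered the estimate of the spread between pools and are given beside single genes. One Mfn2-/- pool carries the genotype label Mn2-/- and was placed by its sample description. The targeted exons, the driver of any Cre recombinase and whether the pools came from separate females are not stated in the sources used here. The p-values therefore measure the spread between these pools, which may be partly technical.

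Mitofusins sit in the outer membrane of mitochondria and use GTP to tether neighbouring mitochondria and fuse their outer membranes. Mfn2 is also found on the endoplasmic reticulum, where it takes part in contacts with mitochondria. In a growing oocyte, mitochondria supply ATP, and the transcripts of the zona pellucida, of secreted growth factors and of the maternal proteins that the embryo will use are stored.

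The genotype labels were first checked on the targeted transcripts. Levels are in CPM, the count of a gene scaled to library size after correction by the trimmed mean of M values (TMM). Fold changes are Mfn1-/- over Mfn2-/- on the log2 scale. Mfn1, at chr3:32529465-32579239 (GRCm38, GENCODE M21 gene span), had 17.8, 18.9 and 17.7 CPM in the 3 Mfn1-/- pools, against 245, 217 and 228 CPM in the 3 Mfn2-/- pools (log2 fold change -3.66 ± 0.16 (SE), edgeR adjusted p = 2.06e-09). It averaged 20.1 ± 5.87 CPM in Mfn1&2-/- oocytes and 279.7 ± 16.4 CPM in WT oocytes (SD, n = 3 pools each). The Mfn1-/- and Mfn1&2-/- pools were low and did not overlap with the other pools. Mfn2, at chr4:147873599-147904704, had 70.8, 64.5 and 64.3 CPM in the 3 Mfn1-/- pools, against 9.19, 10.8 and 13.5 CPM in the 3 Mfn2-/- pools (log2 fold change 2.57 ± 0.17 (SE), edgeR adjusted p = 1.73e-07). It averaged 10.8 ± 1.31 CPM in Mfn1&2-/- oocytes and 76.3 ± 9.75 CPM in WT oocytes. Every pool had a low level of the transcript its label names as lost. Mfn2 in Mfn1-/- oocytes and Mfn1 in Mfn2-/- oocytes lay near the WT levels, with log2 differences of -0.20 (edgeR adjusted p = 0.643) and -0.28 (edgeR adjusted p = 0.218).

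**Figure D1:**
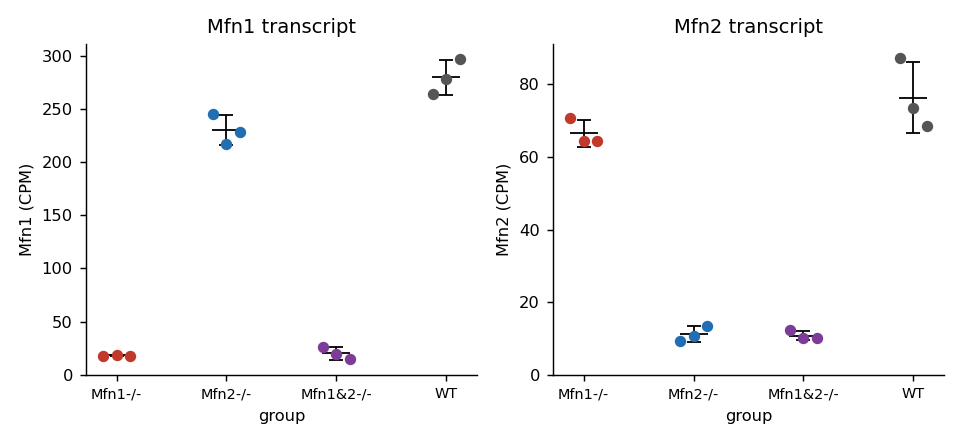
CPM of Mfn1 (left) and Mfn2 (right) in each of 3 pools of Mfn1-/-, Mfn2-/-, Mfn1&2-/- and WT oocytes, with the mean and SD as bars. Mfn1 averages 18.1 CPM in Mfn1-/- and 230.2 CPM in Mfn2-/- oocytes, and Mfn2 averages 66.5 CPM in Mfn1-/- and 11.2 CPM in Mfn2-/- oocytes.

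Between the single knockouts, 1515 genes (13.3% of those tested) differed at an edgeR adjusted p below 0.05. Of these, 779 (6.84%) were higher in Mfn1-/- oocytes and 736 (6.46%) were lower. A total of 455 genes (4.0%) were called and also differed more than 2-fold, 218 higher and 237 lower in Mfn1-/- oocytes, and 33 and 55 of the called genes differed more than 8-fold. Called genes had a median level of 56.6 CPM where higher and 51.9 CPM where lower in Mfn1-/- oocytes, against 24.9 CPM over all genes tested. The median log2 fold change over all genes was -0.004. For orientation, the same model called 26 genes (0.228%) for Mfn1-/- against WT and 1297 (11.4%) for Mfn2-/- against WT. Both of these comparisons use the same WT pools.

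The 12 libraries held 11575357 to 16024893 counts, so that 3 counts corresponded to 0.188 to 0.253 CPM. Correlations of log2 CPM were 0.971 for each pair of Mfn1-/- pools, 0.965 to 0.979 within the Mfn2-/- pools and 0.931 to 0.945 between the knockouts. On the first principal component of the 6 libraries (50.6% of the variance), Mfn1-/- pools lay at -40.9 to -33.1 and Mfn2-/- pools at 33.4 to 42.5. Mfn2-/- pool 1 stood apart from Mfn2-/- pools 2 and 3 on the second component (17.7% of the variance), at -39.6 against 27.6 and 15.9. The number of called genes was 920 without Mfn2-/- pool 1, 873 without Mfn1-/- pool 2 and 965 without Mfn2-/- pool 3. Of the 1515 calls, 614 (40.5%; 331 higher, 283 lower) held in each of 12 fits that left out 1 library.

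**Figure D2:**
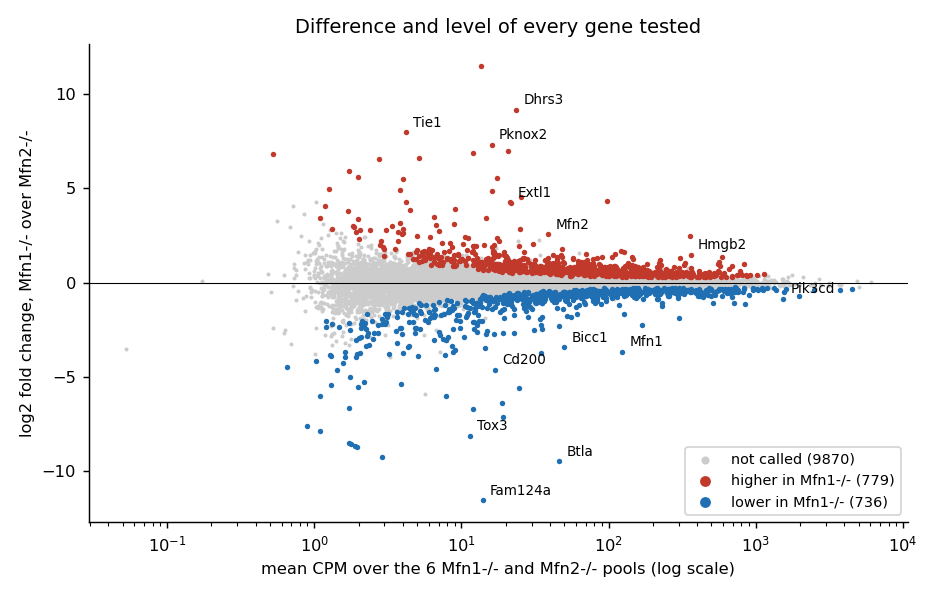
Log2 fold change (Mfn1-/- over Mfn2-/-) of each of 11385 genes against its mean CPM over the 6 pools (log axis), with the 779 genes called higher and the 736 called lower in Mfn1-/- oocytes in colour. Most called genes differ by less than 2-fold, and a few, among them Dhrs3, Tie1, Btla and Fam124a, are near 0 in one of the knockouts.

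Of the named genes, 5 held 236 to 1942 counts over the 3 pools of one knockout and 0 to 3 counts over those of the other. Dhrs3, which reduces retinaldehyde to retinol, had 56.6, 45.1 and 39.1 CPM in the 3 Mfn1-/- pools, against 0, 0.166 and 0.0669 CPM in the 3 Mfn2-/- pools. It held 3 counts in all Mfn2-/- pools together and 1942 in the Mfn1-/- pools, a ratio of 659 (95% interval 225 to 3199, covering counting error only; edgeR adjusted p = 2.61e-08). Its level was 0.145 ± 0.152 CPM in Mfn1&2-/- oocytes and 33 ± 9.5 CPM in WT oocytes, so that Dhrs3 was low in both genotypes that lack Mfn2. Tie1, a receptor tyrosine kinase best known from endothelium, had 5.72, 10.3 and 9.08 CPM in the 3 Mfn1-/- pools, against 0, 0.083 and 0 CPM in the 3 Mfn2-/- pools. This was 1 count in Mfn2-/- and 350 in Mfn1-/- oocytes, a ratio of 356 (95% interval 63.5 to 14110, counting error only; edgeR adjusted p = 5.73e-05). Tie1 averaged 0.0657 ± 0.114 CPM in Mfn1&2-/- oocytes and 8.95 ± 4.03 CPM in WT oocytes, the same grouping as for Dhrs3. Fewer cells of a type and less RNA per cell cannot be told apart in pooled samples.

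In the other direction, Fam124a had no count in any Mfn1-/- pool and 34.7, 28.6 and 20.7 CPM in the Mfn2-/- pools, at least 384-fold lower in Mfn1-/- oocytes against a floor of 3 counts over the group (edgeR adjusted p = 1.16e-06). It was also without a count in every WT pool and averaged 30.9 ± 9.51 CPM in Mfn1&2-/- oocytes (SD, n = 3). Tnr, a brain extracellular matrix glycoprotein, likewise had no count in Mfn1-/- oocytes, against 2.2, 7.97 and 7.16 CPM in the Mfn2-/- pools, at least 77.3-fold lower (edgeR adjusted p = 0.00676). Tox3, a high-mobility-group box protein, held 3 counts in Mfn1-/- and 943 in Mfn2-/- oocytes, a ratio of Mfn2-/- to Mfn1-/- of 309 (95% interval 105 to 1500, counting error only; edgeR adjusted p = 9.14e-04). The WT pools had 0, 0 and 3.51 CPM of Tnr and 0.399, 1.27 and 12.4 CPM of Tox3. Mfn1&2-/- oocytes averaged 15.9 ± 6.38 CPM of Tnr and 13.1 ± 9.94 CPM of Tox3. Neither gene was called in Mfn1-/- or in Mfn2-/- against WT. The table holds genes above 1 CPM in at least 3 of the 12 libraries, so a gene near 0 in both Mfn1-/- and WT oocytes is in it through the genotypes where it is high.

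Btla, an inhibitory receptor of lymphocytes at chr16:45224315-45257670, had 0.301, 0 and 0.0833 CPM in the 3 Mfn1-/- pools, against 96.1, 92.9 and 87.2 CPM in the 3 Mfn2-/- pools (log2 fold change -9.46 ± 0.52 (SE), edgeR adjusted p = 2.02e-08). Its mean was 47.1 ± 19.2 CPM in Mfn1&2-/- oocytes and 0.195 ± 0.21 CPM in WT oocytes. Cd200, an inhibitory ligand for myeloid cells whose gene lies next to Btla at chr16:45382135-45409053, had 0.301, 0.878 and 2.91 CPM in the 3 Mfn1-/- pools, against 26.4, 38.8 and 32.5 CPM in the 3 Mfn2-/- pools (log2 fold change -4.61 ± 0.53 (SE), edgeR adjusted p = 7.39e-05). It averaged 11.9 ± 5.31 CPM in Mfn1&2-/- oocytes and 6.25 ± 0.75 CPM in WT oocytes. Both genes were high in the Mfn2-/- pools, intermediate in the Mfn1&2-/- pools and low in the Mfn1-/- pools. The WT pools had Btla below 1 CPM and Cd200 between the single knockouts. Against the shared WT pools, Btla had log2 fold changes of -0.63 for Mfn1-/- over WT (edgeR adjusted p = 0.846) and 8.83 for Mfn2-/- over WT (edgeR adjusted p = 3.08e-08). Cd200 had -2.23 for Mfn1-/- over WT (edgeR adjusted p = 0.0887) and 2.38 for Mfn2-/- over WT (edgeR adjusted p = 0.00402). Another gene of the same stretch, Phldb2 at chr16:45746243-45953598, which anchors microtubules at the cell cortex, was also lower in Mfn1-/- oocytes (log2 fold change -3.78 ± 1.2 (SE), edgeR adjusted p = 0.0488). Its call was lost in 8 of the 12 fits without 1 library, those without Mfn1-/- pool 1 or 3, any Mfn2-/- pool, WT pool 2 or Mfn1&2-/- pool 2 or 3 (highest edgeR adjusted p = 0.139). Cd200r3, a member of the Cd200 receptor family at chr16:44943678-44981380, named after its value was seen, was higher in Mfn1-/- oocytes (2.47 ± 1.34 CPM in Mfn1-/- and 0.0669 ± 0.116 CPM in Mfn2-/- oocytes, log2 fold change 4.96, edgeR adjusted p = 0.0113). Slc35a5 (-0.62, edgeR adjusted p = 0.0594) and Atg3 (0.00, edgeR adjusted p = 0.998), which lie between Cd200r3 and Btla, did not pass the test. Both were also named after their values were seen.

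The windows around the annotated starts of 4 of these genes, from 250 bases before to 50 bases after, are shown because the genes are nearly silent in one knockout and, for Btla and Cd200, are neighbours. They are RefSeq windows on GRCm38.p6, 5′ to 3′ on the strand of the gene, with CpG dinucleotides in capitals. Btla lies on the plus strand (chr16:45224087-45224386), Cd200 on the minus strand (chr16:45409004-45409303), Dhrs3 on the plus strand (chr4:144892577-144892876, the first listed of its starts) and Tie1 on the minus strand (chr4:118489800-118490099).
Btla: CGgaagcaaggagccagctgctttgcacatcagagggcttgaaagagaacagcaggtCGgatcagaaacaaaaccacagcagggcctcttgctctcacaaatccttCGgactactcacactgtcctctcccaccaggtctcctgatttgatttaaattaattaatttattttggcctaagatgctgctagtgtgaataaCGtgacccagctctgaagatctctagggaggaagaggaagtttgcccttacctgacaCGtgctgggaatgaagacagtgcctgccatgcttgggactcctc
Cd200: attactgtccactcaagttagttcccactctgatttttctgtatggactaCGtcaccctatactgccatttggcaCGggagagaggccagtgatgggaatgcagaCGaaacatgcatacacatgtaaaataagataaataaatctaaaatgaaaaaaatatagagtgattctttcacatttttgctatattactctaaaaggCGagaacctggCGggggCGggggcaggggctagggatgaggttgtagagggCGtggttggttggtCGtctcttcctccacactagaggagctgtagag
Dhrs3: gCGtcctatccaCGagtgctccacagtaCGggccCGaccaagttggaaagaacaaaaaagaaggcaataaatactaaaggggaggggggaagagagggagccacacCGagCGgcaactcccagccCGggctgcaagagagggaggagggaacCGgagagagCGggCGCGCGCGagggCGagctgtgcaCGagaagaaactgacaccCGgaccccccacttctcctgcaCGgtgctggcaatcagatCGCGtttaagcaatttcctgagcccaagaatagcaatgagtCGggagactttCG
Tie1: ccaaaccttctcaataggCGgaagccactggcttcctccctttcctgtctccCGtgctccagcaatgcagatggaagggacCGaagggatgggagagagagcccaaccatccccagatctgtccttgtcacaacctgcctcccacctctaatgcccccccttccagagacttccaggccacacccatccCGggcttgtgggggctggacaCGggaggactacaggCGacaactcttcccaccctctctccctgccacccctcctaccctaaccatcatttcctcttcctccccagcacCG
The Dhrs3 window held 21 CpG dinucleotides, Cd200 8, Tie1 7 and Btla 5. The median was 21 over the windows of the 9037 tested genes that the RefSeq table lists, and 7 over all 27018 windows. Among the 15 largest rises that the naming rule selects, 10 had a window, with a median of 7 CpG, and among the 15 largest falls 14 had one, with a median of 18.5. The letters TAATTA or TAATTG, the core bound by the oocyte homeobox factor Nobox, were searched on both strands. They occurred in 4 of those 14 windows, that of Btla among them, in 0 of the 10, and in 7.6% of the windows of all tested genes. The GC box GGGCGG, also searched on both strands, was in 2 of the 10 windows and in 10 of the 14, that of Cd200 among them. It was in 64.1% of the windows of all tested genes. A match of letters is a description of the window and not a binding site.

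**Figure D3:**
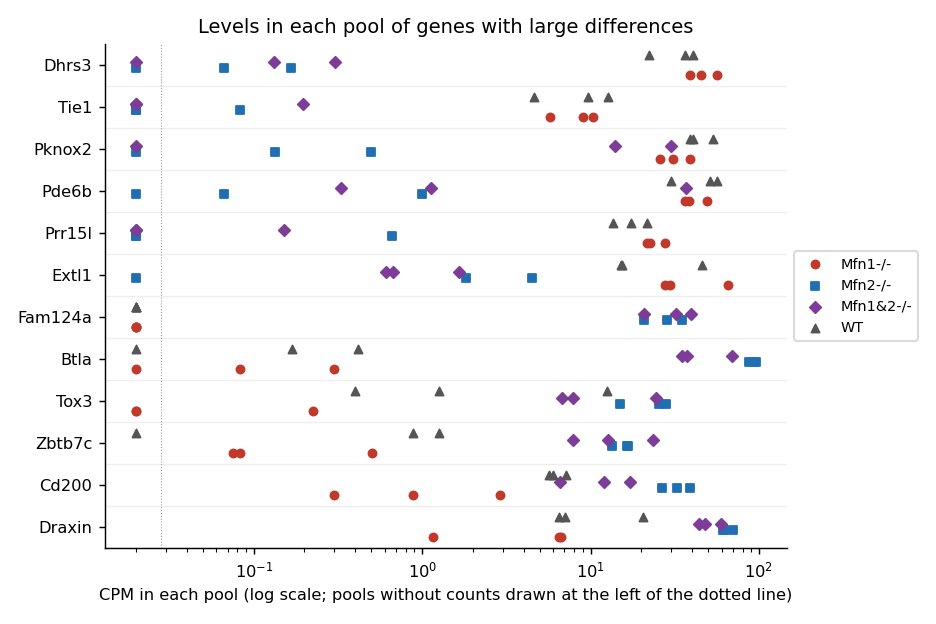
CPM in each pool (log axis, with pools without counts left of the dotted line) of 12 genes in Mfn1-/-, Mfn2-/-, Mfn1&2-/- and WT oocytes. Dhrs3, Tie1, Prr15l and Extl1 are low in the Mfn2-/- and Mfn1&2-/- pools, and Fam124a, Btla, Tox3, Zbtb7c, Cd200 and Draxin are lowest in Mfn1-/- or WT pools.

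For each direction, the 15 called genes of greatest fold change were named if they had at least 5 CPM in one knockout and no overlap between the 3 and 3 pools. Over all genes, 3865 (33.9%) had no overlap, 1490 of them called. For genes named by this rule the separation of the pools was therefore fixed by the selection, and nearly all called genes shared it. Beside Dhrs3 and Tie1, the genes higher in Mfn1-/- oocytes included Pknox2, a TALE homeobox transcription factor, with 25.9, 30.9 and 38.8 CPM in Mfn1-/- and 0, 0.498 and 0.134 CPM in Mfn2-/- oocytes (log2 fold change 7.3 ± 1.19 (SE), edgeR adjusted p = 0.00112). Pde6b, the beta subunit of the rod photoreceptor phosphodiesterase, had 36.6, 49 and 38.2 CPM in Mfn1-/- and 0, 0.996 and 0.0669 CPM in Mfn2-/- oocytes (log2 fold change 6.99 ± 1.36 (SE), edgeR adjusted p = 0.0036). Both were near 0 in all 3 Mfn2-/- pools, while the Mfn1&2-/- pools were spread, with 0, 13.9 and 30.1 CPM of Pknox2 and 36.9, 0.329 and 1.14 CPM of Pde6b. Extl1, a glycosyltransferase of the exostosin family, had 27.5, 29.5 and 65.7 CPM in Mfn1-/- and 4.46, 1.83 and 0 CPM in Mfn2-/- oocytes (log2 fold change 4.27 ± 0.76 (SE), edgeR adjusted p = 0.00201). Mll1 (Kmt2a), a histone H3 lysine 4 methyltransferase, had 34.7, 17.7 and 94.4 CPM in Mfn1-/- and 2.06, 2.08 and 2.14 CPM in Mfn2-/- oocytes (log2 fold change 4.54 ± 0.65 (SE), edgeR adjusted p = 4.46e-04). The Mfn1-/- pools of Mll1 were scattered, with pool 3 the highest and pool 2 the lowest. Csmd1, a complement-control-domain membrane protein, averaged 41 ± 11.3 CPM in Mfn1-/- and 2.18 ± 1.13 CPM in Mfn2-/- oocytes (log2 fold change 4.22 ± 0.78 (SE), edgeR adjusted p = 0.00265).

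The others of the 15 were Prr15l (log2 fold change 6.86), the Prame family member Pramef17 (6.61), the olfactory receptor Olfr287 (5.51), the receptor tyrosine kinase adaptor Grb7 (4.93), the ubiquitin ligase Trim25 (4.27), Zfp605 (3.88), Prps2 (3.83), which makes phosphoribosyl pyrophosphate, and the lipid droplet enzyme Hsd17b13 (3.48). Their edgeR adjusted p-values ran from 1.81e-05 (Prr15l) to 0.0348 (Prps2). Prps2 lost its call in 5 of 12 fits without 1 library, those without Mfn1-/- pool 2 or 3 or any Mfn2-/- pool (highest edgeR adjusted p = 0.118). Pramef17 and Olfr287 belong to families of near-identical copies whose reads may have been split in counting, and their values are uncertain for that reason.

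Among the genes lower in Mfn1-/- oocytes, Manba, the lysosomal beta-mannosidase, had 0.451, 0.878 and 1.75 CPM in Mfn1-/- and 27.4, 57.5 and 60.7 CPM in Mfn2-/- oocytes (log2 fold change -5.58 ± 1.12 (SE), edgeR adjusted p = 0.00457). It averaged 6.63 ± 11 CPM in Mfn1&2-/- oocytes and 0.709 ± 0.352 CPM in WT oocytes. The 3 Mfn2-/- pools were above every other pool. Acsf2, a mitochondrial acyl-CoA synthetase, averaged 0.534 ± 0.274 CPM in Mfn1-/- and 12.8 ± 2.22 CPM in Mfn2-/- oocytes (log2 fold change -4.56 ± 0.66 (SE), edgeR adjusted p = 4.72e-04). Zbtb7c, a zinc finger protein, averaged 0.22 ± 0.244 CPM in Mfn1-/- and 15.6 ± 1.83 CPM in Mfn2-/- oocytes (log2 fold change -5.98 ± 0.75 (SE), edgeR adjusted p = 1.65e-04). Both were also high in the Mfn1&2-/- pools, at 15.4 ± 0.434 and 14.7 ± 7.89 CPM, and low in WT oocytes, at 1.5 ± 1.89 and 0.71 ± 0.643 CPM. Draxin, a repulsive guidance protein of axons, had 6.47, 6.71 and 1.17 CPM in Mfn1-/- and 61.1, 61.9 and 70.02 CPM in Mfn2-/- oocytes (log2 fold change -3.73 ± 0.47 (SE), edgeR adjusted p = 1.76e-04). Its level in WT oocytes was 11.3 ± 7.91 CPM. Sgms2, which makes sphingomyelin from ceramide, had 1.8, 1.38 and 0.5 CPM in Mfn1-/- and 14.7, 17.4 and 16.5 CPM in Mfn2-/- oocytes (log2 fold change -3.7 ± 0.64 (SE), edgeR adjusted p = 0.00157).

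The remaining members were the RNA-editing family member Adarb2 (-5.37, edgeR adjusted p = 0.0345), the GTPase regulator Syde2 (-3.87, edgeR adjusted p = 0.0118), the mRNA export adaptor Alyref2 (-3.82, edgeR adjusted p = 0.00247) and the ciliary microtubule protein Tekt4 (-3.72, edgeR adjusted p = 7.98e-04). Adarb2 lost its call without any one of the 6 pools compared (highest edgeR adjusted p = 0.123) and Syde2 without Mfn1-/- pool 2 (edgeR adjusted p = 0.0542).

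Genes of at least 50 CPM in one knockout with the smallest p-values differed by less, with narrower errors. Lower in Mfn1-/- oocytes, Pcgf3, a subunit of a variant polycomb repressive complex, had 59.8, 60.7 and 64.7 CPM in Mfn1-/- and 206, 182 and 188 CPM in Mfn2-/- oocytes (log2 fold change -1.64 ± 0.12 (SE), edgeR adjusted p = 4.47e-07). Its Mfn1&2-/- level was 216 ± 36.6 CPM, near the Mfn2-/- level, and its WT level 73.9 ± 1.72 CPM. Bicc1, an RNA-binding protein that represses mRNAs in polarity and early development, had 7.37, 6.4 and 11.8 CPM in Mfn1-/- and 101, 80.9 and 91.7 CPM in Mfn2-/- oocytes (log2 fold change -3.43 ± 0.28 (SE), edgeR adjusted p = 2.30e-06). It averaged 103 ± 39.6 CPM in Mfn1&2-/- oocytes and 11.9 ± 1.74 CPM in WT oocytes. Pik3cd, the delta catalytic subunit of phosphoinositide 3-kinase, had 1131, 1051 and 1088 CPM in Mfn1-/- and 2000.5, 1861 and 2058 CPM in Mfn2-/- oocytes (log2 fold change -0.86 ± 0.08 (SE), edgeR adjusted p = 1.02e-05), and its other levels were 2237 ± 48.7 CPM in Mfn1&2-/- oocytes and 1138 ± 101 CPM in WT oocytes. For each of Pcgf3, Bicc1 and Pik3cd the 3 Mfn2-/- pools lay above all Mfn1-/- and WT pools. Chst11, a chondroitin sulphotransferase, averaged 9.41 ± 3.48 CPM in Mfn1-/- and 53.2 ± 6.19 CPM in Mfn2-/- oocytes (log2 fold change -2.5 ± 0.25 (SE), edgeR adjusted p = 1.86e-05). Ippk, the kinase that makes inositol hexakisphosphate, averaged 309 ± 7.03 CPM in Mfn1-/- and 499.7 ± 24.2 CPM in Mfn2-/- oocytes (log2 fold change -0.69 ± 0.08 (SE), edgeR adjusted p = 1.23e-04). Nod2, a sensor of bacterial peptidoglycan, averaged 14.1 ± 1.51 CPM in Mfn1-/- and 54.7 ± 7.75 CPM in Mfn2-/- oocytes (log2 fold change -1.95, edgeR adjusted p = 1.07e-04), and Phyhipl (-1.65) and Casc1 (-2.44) were lower as well.

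Higher in Mfn1-/- oocytes, Aff1, a scaffold of the super elongation complex of RNA polymerase II, had 467, 442 and 414 CPM in Mfn1-/- and 195, 222 and 231 CPM in Mfn2-/- oocytes (log2 fold change 1.03 ± 0.09 (SE), edgeR adjusted p = 4.78e-06). Kif18b, a kinesin that shortens microtubules, had 74.5, 76.6 and 73 CPM in Mfn1-/- and 21.5, 23.7 and 21.1 CPM in Mfn2-/- oocytes (log2 fold change 1.76 ± 0.16 (SE), edgeR adjusted p = 8.64e-06). Hmgb2, a chromatin protein with high-mobility-group boxes, had 441, 588 and 571 CPM in Mfn1-/- and 194, 164 and 216 CPM in Mfn2-/- oocytes (log2 fold change 1.48 ± 0.18 (SE), edgeR adjusted p = 1.15e-04). The Mfn1&2-/- level of Hmgb2, 637 ± 37.7 CPM, was near that of Mfn1-/- and WT oocytes, whereas that of Kif18b, 25.3 ± 1.34 CPM, was near that of Mfn2-/- oocytes. Inadl (Patj), a scaffold of the Crumbs polarity complex, averaged 434 ± 65.1 CPM in Mfn1-/- and 178 ± 5.25 CPM in Mfn2-/- oocytes (log2 fold change 1.29 ± 0.14 (SE), edgeR adjusted p = 5.94e-05). Msrb3, a methionine sulphoxide reductase, averaged 163 ± 17.7 CPM in Mfn1-/- and 57.6 ± 10.2 CPM in Mfn2-/- oocytes (log2 fold change 1.5 ± 0.16 (SE), edgeR adjusted p = 3.56e-05). Nudt9, a mitochondrial ADP-ribose hydrolase (1.44), the kinase Styk1 (1.33), Zfp652 (1.12) and the ribosomal protein gene Rpl37 (1.37) completed the group, with edgeR adjusted p-values from 8.86e-06 (Rpl37) to 1.16e-04 (Zfp652).

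The single comparisons with WT, which share the WT pools, gave the following values side by side. Of the 20 abundant genes, 2 were called in Mfn1-/- against WT (Mfn1 itself and Chst11) and 18 in Mfn2-/- against WT. Of the 30 with the largest fold changes, 1 was called in Mfn1-/- against WT and 26 in Mfn2-/- against WT. Both sets were chosen by the difference between the knockouts, so these counts are a description. Bicc1 had log2 fold changes of -0.49 for Mfn1-/- over WT (edgeR adjusted p = 0.494) and 2.94 for Mfn2-/- over WT (edgeR adjusted p = 9.77e-06). Pik3cd had -0.06 for Mfn1-/- over WT (edgeR adjusted p = 0.789) and 0.79 for Mfn2-/- over WT (edgeR adjusted p = 2.37e-05). Hmgb2 had -0.39 for Mfn1-/- over WT (edgeR adjusted p = 0.363) and -1.87 for Mfn2-/- over WT (edgeR adjusted p = 1.41e-05). In Msrb3 they were 0.18 for Mfn1-/- over WT (edgeR adjusted p = 0.671) and -1.32 for Mfn2-/- over WT (edgeR adjusted p = 1.20e-04). Each of these 4 was called in Mfn2-/- against WT and not in Mfn1-/- against WT. For Chst11, also abundant, the reverse held, with -1.92 for Mfn1-/- over WT (edgeR adjusted p = 0.00582) and 0.58 for Mfn2-/- over WT (edgeR adjusted p = 0.121). Among the genes with the largest fold changes, Tekt4 was the 1 called in Mfn1-/- against WT, with -3.15 for Mfn1-/- over WT (edgeR adjusted p = 0.0324) and 0.57 for Mfn2-/- over WT (edgeR adjusted p = 0.499).

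Gene lists were then counted against the background of 6.84% called higher and 6.46% called lower. Calls were more frequent among abundant genes. Of 3976 genes averaging at least 50 CPM over the 6 pools compared, 407 were called higher and 377 lower. The lists differ in level, and their shares were not adjusted for it. Apart from the cell type markers, the highest shares of lower calls were those of oocyte growth factor and egg coat genes (47.1%), maternal effect genes (33.3%), the integrated stress response (18.2%), translation factors (16.4%), meiotic arrest and maturation (16.1%) and immune receptors and cytokines (4 of 25). The immune share counts Btla, which is in the table only through the genotypes where it is high. The highest shares of higher calls were those of cytosolic ribosomal proteins (20 of 80), the Hedgehog, Wnt, Fgf and TGF-beta pathways together (18.8%), glucose metabolism (18.2%), immediate early and heat shock genes (3 of 20) and translation factors (14.5%). The lists were given no test of their own. In each list the members with the smallest p-values are given first. Where further called members of a list are named, they were named after their values were seen.

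**Figure D4:**
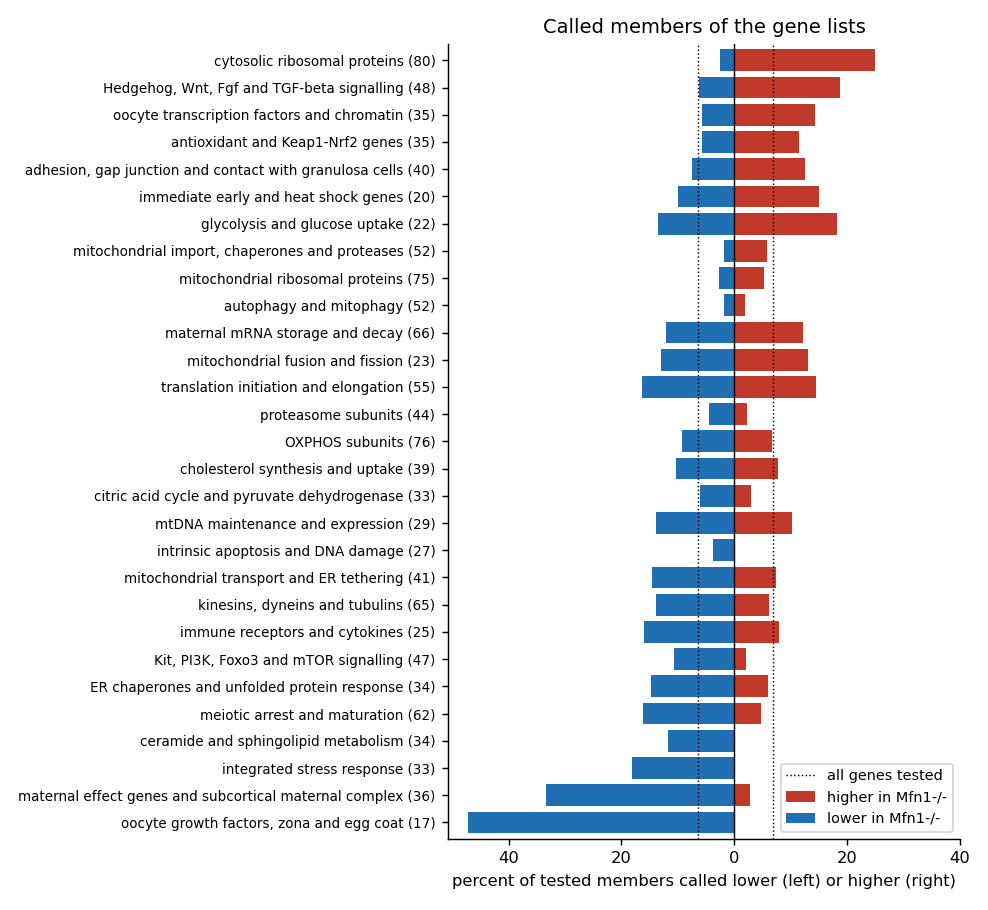
Percent of the tested members of each of 29 gene lists (number tested in parentheses) called lower (left) or higher (right) in Mfn1-/- than in Mfn2-/- oocytes. Dotted lines mark the share of all tested genes, 6.46% lower and 6.84% higher; 20 of 80 cytosolic ribosomal proteins are higher, and oocyte growth factor and egg coat genes 47.1% lower.

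Of 17 tested genes of oocyte growth factors, zona and egg coat, 8 were lower in Mfn1-/- oocytes and 0 higher (edgeR; 1 higher at an unadjusted p below 0.05 and 0 by DESeq2), with a median log2 fold change of -0.30. Bmp15, a growth factor that the oocyte secretes to granulosa cells, had 1343, 1238 and 1327 CPM in Mfn1-/- and 1915, 1811 and 1747 CPM in Mfn2-/- oocytes (log2 fold change -0.49 ± 0.08 (SE), edgeR adjusted p = 0.001). Its partner Gdf9 averaged 3968 ± 309 CPM in Mfn1-/- and 5078 ± 24.6 CPM in Mfn2-/- oocytes (log2 fold change -0.36, edgeR adjusted p = 0.0386). Folr4 (Juno, Izumo1r), the egg receptor for the sperm protein Izumo1, had 79.3, 78.6 and 83.4 CPM in Mfn1-/- and 136, 131 and 119 CPM in Mfn2-/- oocytes (log2 fold change -0.68 ± 0.13 (SE), edgeR adjusted p = 0.00256). Like nearly all called genes, Bmp15 and Folr4 had no overlap between Mfn1-/- and Mfn2-/- pools. Pla2g4c, an oocyte phospholipase, averaged 2151 ± 142 CPM in Mfn1-/- and 2863 ± 222 CPM in Mfn2-/- oocytes (log2 fold change -0.41 ± 0.09 (SE), edgeR adjusted p = 0.0052). Oosp1 (-0.39), the zona protein gene Zp1 (-0.43), Zp3r (-1.31) and the receptor gene Kit (-0.25) were the other called members. Zp3r is counted with the list, though it encodes a receptor for a zona protein and not a part of the egg coat. Bmp15, Folr4 and Pla2g4c kept the call in all 12 fits without 1 library, and the number called was 3 without Mfn1-/- pool 2, Mfn1-/- pool 3, Mfn2-/- pool 1 or Mfn2-/- pool 3 and 5 without Mfn2-/- pool 2.

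Maternal effect genes act in the egg and early embryo, several as subunits of the subcortical maternal complex. Of 36 tested, 12 were lower in Mfn1-/- oocytes and 1 was higher, with a median of -0.12. Among the 12, Oog2, Oog3, Oog4 and Padi6 lie within 10 Mb of Mfn2. Linkage to the targeted allele cannot be told apart there from an effect of the lost protein. Oog3, an oocyte-specific leucine-rich repeat gene, had 537, 599.8 and 451 CPM in Mfn1-/- and 1201, 1139.6 and 1150.3 CPM in Mfn2-/- oocytes (log2 fold change -1.14 ± 0.14 (SE), edgeR adjusted p = 1.30e-04). Dppa3 (Stella), which protects the maternal genome from demethylation, had 212, 234 and 236 CPM in Mfn1-/- and 328, 333 and 344 CPM in Mfn2-/- oocytes (log2 fold change -0.56 ± 0.09 (SE), edgeR adjusted p = 7.75e-04). Nlrp9a, of the Nlrp family, averaged 318 ± 32.4 CPM in Mfn1-/- and 473 ± 29.3 CPM in Mfn2-/- oocytes (log2 fold change -0.57 ± 0.09 (SE), edgeR adjusted p = 9.96e-04). The subcortical complex members Ooep (-0.59, edgeR adjusted p = 0.0112), Padi6 (-0.41, edgeR adjusted p = 0.0182) and Tle6 (-0.31, edgeR adjusted p = 0.0207) were lower, as were Nlrp2 (-0.56), Nlrp4a (-0.42), Nlrp4b (-0.42), Oog2 (-0.55), Oog4 (-0.67) and Btg4 (-0.40), an adaptor of maternal mRNA decay. Zar1l, a relative of the maternal effect gene Zar1, was the exception, with 297, 331 and 297 CPM in Mfn1-/- and 130.1, 145 and 132 CPM in Mfn2-/- oocytes (log2 fold change 1.18 ± 0.18 (SE), edgeR adjusted p = 5.88e-04). From 8 to 12 members were called lower in the fits without 1 library, and 7 of the 13 calls held in all 12. Oog, Nlrp and Prame genes are families of similar copies, so single values are uncertain where counting could split their reads. Over the 14 tested Nlrp genes 5 were lower and 0 higher (edgeR; 0 higher at an unadjusted p below 0.05 and 0 by DESeq2), with a median of -0.24.

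The 16 oocyte markers used to check the cell type were all in the table. They summed to 14814 to 16972 CPM in Mfn1-/- pools and 17436 to 19451 CPM in Mfn2-/- pools, so the 3 and 3 sums did not overlap, and to 15109 to 17203 CPM in Mfn1&2-/- and 13709 to 16722 CPM in WT pools. Among them 7 were called lower and 1 higher. All 7 lower calls are also counted in other lists and are not separate results. Bmp15, Gdf9, Oosp1, Zp1 and Kit are in the egg coat list, Ooep among maternal effect genes and H1foo among transcription factors. H1foo, the oocyte linker histone, averaged 1185 ± 58 CPM in Mfn1-/- and 1553 ± 89 CPM in Mfn2-/- oocytes (log2 fold change -0.39 ± 0.08 (SE), edgeR adjusted p = 0.00625). Ddx4, the germ cell RNA helicase, was the higher one, with 155 ± 24.9 CPM in Mfn1-/- and 103 ± 19.1 CPM in Mfn2-/- oocytes (log2 fold change 0.59, edgeR adjusted p = 0.012). The number called was 2 without Mfn2-/- pool 1, 3 without Mfn1-/- pool 2, 4 without Mfn1-/- pool 3 or Mfn2-/- pool 3 and 5 without Mfn2-/- pool 2, and Ddx4 lost its call without Mfn2-/- pool 1. The part that this summed level has in the lower calls of the oocyte lists was not tested.

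Of 80 tested cytosolic ribosomal protein genes, 20 were higher in Mfn1-/- oocytes and 2 lower, with a median log2 fold change of 0.14. Rpl37 had 207, 231 and 184 CPM in Mfn1-/- and 78.2, 78.4 and 84.8 CPM in Mfn2-/- oocytes (log2 fold change 1.37 ± 0.13 (SE), edgeR adjusted p = 8.86e-06). Rpl12 had 35.2, 36.2 and 32.8 CPM in Mfn1-/- and 15.2, 15.4 and 14.6 CPM in Mfn2-/- oocytes (log2 fold change 1.2 ± 0.15 (SE), edgeR adjusted p = 1.24e-04). Rpl28 averaged 62.4 ± 18.4 CPM in Mfn1-/- and 26.1 ± 1.59 CPM in Mfn2-/- oocytes (log2 fold change 1.26 ± 0.19 (SE), edgeR adjusted p = 7.10e-04). In Mfn1&2-/- oocytes Rpl37 averaged 222 ± 12.9 CPM, Rpl12 39.9 ± 2.39 CPM and Rpl28 72.8 ± 4.79 CPM, and in WT oocytes 248 ± 46.1, 40.9 ± 5.39 and 80.7 ± 12.9 CPM. The low values were those of the Mfn2-/- pools. Rpl14 (1.00) of the large subunit and Rps6 (0.80), the small subunit protein phosphorylated downstream of mTOR, were higher too. The 2 exceptions were Rpl10 (-0.75, edgeR adjusted p = 0.00142) and Rpl10a (-1.29, edgeR adjusted p = 0.00796). From 14 to 21 members were called higher in the 12 fits without 1 library, and 15 of the 22 calls held in all of them. Ribosomal protein genes have many processed pseudogenes, and how reads with several matches were counted is not stated in the sources used here.

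Among 75 mitochondrial ribosomal protein genes, 4 were higher and 2 lower, a share of 8.0% called. Mrps25 averaged 201 ± 27.9 CPM in Mfn1-/- and 117 ± 7.7 CPM in Mfn2-/- oocytes (log2 fold change 0.78 ± 0.12 (SE), edgeR adjusted p = 9.55e-04). Mrps30 (0.87), Mrpl38 (0.68) and Mrps21 (0.93) were higher too, and Mrps23 (-1.08) and Mrpl48 (-0.46) lower. Without Mfn2-/- pool 2 or 3, 3 members were called.

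Translation factors went both ways, 8 higher and 9 lower among 55. Eif3g, a subunit of the scaffold eIF3, averaged 120.2 ± 8.2 CPM in Mfn1-/- and 71 ± 5.96 CPM in Mfn2-/- oocytes (log2 fold change 0.76 ± 0.12 (SE), edgeR adjusted p = 0.00113). The scaffold gene Eif4g3 (0.58) was higher too, while Eif2s3x (-0.61) of the eIF2 complex and Eif3m (-0.67) were lower. Fits without 1 library called 7 without Mfn1-/- pool 2, 8 without Mfn2-/- pool 1 and 10 without Mfn1-/- pool 3 or Mfn2-/- pool 3. Storage and decay factors of maternal mRNA were also divided, 8 and 8 of 66, with a median of 0.02. Marf1, an RNase that silences transcripts in oocytes, averaged 340.2 ± 8.47 CPM in Mfn1-/- and 491 ± 37.7 CPM in Mfn2-/- oocytes (log2 fold change -0.53 ± 0.08 (SE), edgeR adjusted p = 9.62e-04). The deadenylase gene Cnot7 was also lower, with 317 ± 43.7 CPM in Mfn1-/- and 515 ± 72.3 CPM in Mfn2-/- oocytes (log2 fold change -0.70 ± 0.12 (SE), edgeR adjusted p = 0.00163). Cnot11, a subunit of the same Ccr4-Not complex, was higher (0.57, edgeR adjusted p = 0.0052). Called members numbered 10 without Mfn1-/- pool 2 or Mfn2-/- pool 3. Among 44 proteasome subunits, Psmc1 (0.62) was higher and Psma6 (-0.70) and Psmd14 (-0.65) lower.

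Among 62 genes of meiotic arrest and maturation, 10 were lower in Mfn1-/- oocytes and 3 higher (median -0.04). Adcy9, one of the adenylyl cyclases that make cyclic AMP, the signal of meiotic arrest, averaged 99.9 ± 4.2 CPM in Mfn1-/- and 56.3 ± 9.64 CPM in Mfn2-/- oocytes (log2 fold change 0.83 ± 0.15 (SE), edgeR adjusted p = 0.00202). Pde3a, the phosphodiesterase that breaks it down, was higher as well, with 608 ± 59.5 CPM in Mfn1-/- and 458 ± 35.4 CPM in Mfn2-/- oocytes (log2 fold change 0.41 ± 0.10 (SE), edgeR adjusted p = 0.0141). Fbxo5 (Emi1), an inhibitor of the anaphase-promoting complex, was lower, with 81.5 ± 10.9 CPM in Mfn1-/- and 135 ± 10.2 CPM in Mfn2-/- oocytes (log2 fold change -0.73 ± 0.14 (SE), edgeR adjusted p = 0.00323). Bub3 of the spindle checkpoint averaged 54.2 ± 5.11 CPM in Mfn1-/- and 82.9 ± 10.4 CPM in Mfn2-/- oocytes (log2 fold change -0.61 ± 0.13 (SE), edgeR adjusted p = 0.00655). Cdk1 (-0.37), Ccnb3 (-0.60), Wee2 (-0.33), Cdc20 (-0.39), Mad2l1 (-0.40), Fbxo43 (-0.51) and Adcy3 (-1.6) were lower and Prkacb (0.54) higher. Calls in the list numbered 3 without Mfn2-/- pool 1, 4 without Mfn2-/- pool 3, 5 without Mfn1-/- pool 3, 6 without Mfn1-/- pool 2 and 7 without Mfn1-/- pool 1, and Adcy9, Fbxo5 and Bub3 held in all 12 fits.

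Among 65 kinesins, dyneins and tubulins 9 were lower and 4 higher. Beside Kif18b, Tubg1 of the gamma-tubulin ring (0.78) and Kifc3 (0.92) were higher. The beta-tubulin gene Tubb3 was lower, with 191 ± 28.6 CPM in Mfn1-/- and 313 ± 9.12 CPM in Mfn2-/- oocytes (log2 fold change -0.71 ± 0.10 (SE), edgeR adjusted p = 4.56e-04). Calls of these genes numbered 8 without Mfn1-/- pool 2 or Mfn1-/- pool 3.

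Oocyte transcription factors and chromatin regulators had 5 of 35 members higher and 2 lower. Dnmt3a, the methyltransferase that sets maternal imprints, averaged 360.0 ± 14.5 CPM in Mfn1-/- and 268 ± 7.08 CPM in Mfn2-/- oocytes (log2 fold change 0.43 ± 0.10 (SE), edgeR adjusted p = 0.0107). Pou5f1 (0.37), Setd1b (0.39), Tet2 (0.95) and Sohlh2 (1.11) were the other higher members, and Dppa3 and H1foo were the lower members. The calls numbered 3 without Mfn1-/- pool 2 or Mfn2-/- pool 1 and 4 without Mfn1-/- pool 1, Mfn1-/- pool 3 or Mfn2-/- pool 3.

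Mitochondrial fusion and fission was the list closest to the lost genes. Of 23 tested members, 3 were higher and 3 lower, Mfn1 and Mfn2 themselves included. Spire1, an actin nucleator with a mitochondrial isoform, was lower, with 276 ± 30.03 CPM in Mfn1-/- and 371 ± 32.2 CPM in Mfn2-/- oocytes (log2 fold change -0.43 ± 0.12 (SE), edgeR adjusted p = 0.0242). Afg3l2, a subunit of the inner membrane AAA protease, was higher, with 188 ± 15.2 CPM in Mfn1-/- and 150.0 ± 1.47 CPM in Mfn2-/- oocytes (log2 fold change 0.33 ± 0.09 (SE), edgeR adjusted p = 0.0309). The fission-linked Gdap1 (-0.37) was lower and Mtfr1l (0.53) higher. Only the 2 mitofusins kept their calls in all 12 fits, and the number called was 2 without Mfn1-/- pool 3 or Mfn2-/- pool 3 and 3 without Mfn2-/- pool 2. Opa1 of inner membrane fusion did not pass the test, with a log2 fold change of 0.02 (95% interval -0.19 to 0.23, edgeR adjusted p = 0.938). Nor did Dnm1l, the fission GTPase gene, at -0.19 (95% interval -0.39 to 0.01, edgeR adjusted p = 0.218). Both were named for their roles, after their values were seen.

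Mitochondrial transport and contacts with the endoplasmic reticulum had 3 of 41 members higher and 6 lower. Ccdc109b (Mcub), the dominant-negative subunit of the mitochondrial calcium uniporter, had 15.3, 15.2 and 16.3 CPM in Mfn1-/- and 84.3, 74.5 and 70.3 CPM in Mfn2-/- oocytes (log2 fold change -2.29 ± 0.48 (SE), edgeR adjusted p = 0.00526). It averaged 89.98 ± 62.7 CPM in Mfn1&2-/- oocytes and 13.7 ± 4.96 CPM in WT oocytes. The Mfn1&2-/- pools were divided, with pools 1 and 3 above every Mfn2-/- pool and pool 2, at 17.8 CPM, within the range of the WT pools. The pore-forming subunit gene Mcu was lower as well, with 94.4 ± 10.1 CPM in Mfn1-/- and 131 ± 13.9 CPM in Mfn2-/- oocytes (log2 fold change -0.47, edgeR adjusted p = 0.0123). The uniporter regulator gene Ccdc90a (Mcur1) was higher, with 91.6, 115 and 94.9 CPM in Mfn1-/- and 50.4, 52.6 and 50.3 CPM in Mfn2-/- oocytes (log2 fold change 0.98 ± 0.15 (SE), edgeR adjusted p = 7.38e-04). Vapa, a tether protein of the endoplasmic reticulum, was higher (0.87), and Stim2, a calcium sensor there, was lower (-0.69). The calcium pump gene Atp2a2 (-0.32), Vps13d (-0.33) and Bcap31 (-0.56) were lower and Vdac3 (0.42) higher. Refits without 1 library called 4 without Mfn2-/- pool 3 and 5 without Mfn2-/- pool 1.

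Nuclear genes for subunits of oxidative phosphorylation had 5 of 76 members higher and 7 lower, a share of 15.8% called. Cox5b of complex IV was higher, with 59.5 ± 6.92 CPM in Mfn1-/- and 35.4 ± 2.63 CPM in Mfn2-/- oocytes (log2 fold change 0.75 ± 0.13 (SE), edgeR adjusted p = 0.0018). Ndufv1 of complex I was lower, with 44.1 ± 3.5 CPM in Mfn1-/- and 64.4 ± 4.18 CPM in Mfn2-/- oocytes (log2 fold change -0.55 ± 0.12 (SE), edgeR adjusted p = 0.00876). Atp5b of the ATP synthase was higher, with 296 ± 33.4 CPM in Mfn1-/- and 207 ± 19.4 CPM in Mfn2-/- oocytes (log2 fold change 0.51 ± 0.10 (SE), edgeR adjusted p = 0.00383). Uqcrb (1.02) and Atp5j (1.14) were also higher, and Uqcrq (-0.77), Sdhd (-0.54), Ndufv2 (-0.78), Ndufa7 (-1.68), Ndufc1 (-1.92) and Ndufb10 (-0.77) lower. The number called was 5 without Mfn2-/- pool 1 and 7 without Mfn2-/- pool 2 or Mfn2-/- pool 3. The table holds no gene encoded on mitochondrial DNA.

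Regulators of mitochondrial DNA and its expression had 3 of 29 members higher and 4 lower. Nrf1, a transcription factor for nuclear genes of respiration, had 193, 218 and 167 CPM in Mfn1-/- and 55.1, 70.7 and 62.4 CPM in Mfn2-/- oocytes (log2 fold change 1.62 ± 0.29 (SE), edgeR adjusted p = 0.00222). Mterfd1 (Mterf3), a factor of mitochondrial ribosome assembly and transcription, averaged 24.7 ± 4.31 CPM in Mfn1-/- and 8.62 ± 4.46 CPM in Mfn2-/- oocytes (log2 fold change 1.52 ± 0.35 (SE), edgeR adjusted p = 0.00949). Lrpprc, which stabilises mitochondrial mRNAs, was lower, with 24.1, 21.4 and 26.8 CPM in Mfn1-/- and 82.8, 86.1 and 90.2 CPM in Mfn2-/- oocytes (log2 fold change -1.84 ± 0.45 (SE), edgeR adjusted p = 0.0138). This call was lost without Mfn1-/- pool 2 (edgeR adjusted p = 0.0621). The WT pools of Lrpprc were divided, at 25.1, 23.5 and 126.6 CPM, with pool 3 above every Mfn2-/- pool. Gabpb2 (1.49) was higher, and Fastkd1 (-0.74), Fastkd2 (-0.76) and Fastkd5 (-0.72), of a family that processes mitochondrial RNA, were lower. Fits without 1 library called 4 without Mfn1-/- pool 2, Mfn1-/- pool 3 or Mfn2-/- pool 1. Of 52 genes of mitochondrial import, chaperones and proteases, 4 (7.7%) were called. The translocase subunit gene Tomm7 averaged 18.1 ± 0.815 CPM in Mfn1-/- and 7.29 ± 1.48 CPM in Mfn2-/- oocytes (log2 fold change 1.31 ± 0.25 (SE), edgeR adjusted p = 0.00323). Timm17b (1.4) and Afg3l2 were also higher, and the rhomboid protease gene Parl (-0.30) was lower. The calls there numbered 1 without Mfn1-/- pool 2, Mfn2-/- pool 1 or Mfn2-/- pool 3 and 2 without Mfn1-/- pool 3.

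In glucose metabolism 4 of 22 members were higher and 3 lower. Pfkfb3, which makes the activator of phosphofructokinase, was higher, with 63.5 ± 8.95 CPM in Mfn1-/- and 25.1 ± 0.817 CPM in Mfn2-/- oocytes (log2 fold change 1.34 ± 0.17 (SE), edgeR adjusted p = 1.99e-04). So were Pfkl (0.77), Slc2a1 (0.54) and Pgam1 (1.31). Ldhb, a lactate dehydrogenase subunit, had 1573, 1411 and 1457 CPM in Mfn1-/- and 2454, 2532 and 2307 CPM in Mfn2-/- oocytes (log2 fold change -0.72 ± 0.09 (SE), edgeR adjusted p = 2.22e-04). Gapdh averaged 22.7 ± 2.35 CPM in Mfn1-/- and 47.4 ± 14.5 CPM in Mfn2-/- oocytes (log2 fold change -1.06 ± 0.23 (SE), edgeR adjusted p = 0.00628). Both were lower in Mfn1-/- oocytes, as was Pfkfb2 (-0.99). Gapdh has many processed pseudogenes, which makes its count uncertain. The calls numbered 4 without Mfn1-/- pool 2, Mfn2-/- pool 1 or Mfn2-/- pool 3. Of 33 genes of the citric acid cycle and pyruvate dehydrogenase, Me1, the cytosolic malic enzyme (-0.50), and Pdhx, a pyruvate dehydrogenase subunit (-0.39), were lower and the inhibitory kinase gene Pdk3 (0.50) was higher.

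The integrated stress response is the programme that runs from eIF2 kinases to the transcription factor Atf4 and its targets. Of 33 tested members, 6 were lower in Mfn1-/- oocytes and 0 higher (edgeR; 0 higher at an unadjusted p below 0.05 and 0 by DESeq2), with a median of -0.05. Ddit4 (Redd1), an inhibitor of mTOR, had 34.6, 31.9 and 33.4 CPM in Mfn1-/- and 72.4, 69.9 and 79.8 CPM in Mfn2-/- oocytes (log2 fold change -1.15 ± 0.16 (SE), edgeR adjusted p = 3.11e-04). Eif2ak3 (Perk), the eIF2 kinase of the endoplasmic reticulum, had 49.5, 46.1 and 40.8 CPM in Mfn1-/- and 114, 71.8 and 89 CPM in Mfn2-/- oocytes (log2 fold change -1.01 ± 0.17 (SE), edgeR adjusted p = 0.00115). It averaged 147 ± 28 CPM in Mfn1&2-/- oocytes and 35.2 ± 1.4 CPM in WT oocytes. For both Ddit4 and Eif2ak3, every Mfn2-/- pool lay above every Mfn1-/- pool, and nearly all called genes were likewise without overlap. The cystine transporter gene Slc7a11 averaged 411 ± 52.3 CPM in Mfn1-/- and 649 ± 48 CPM in Mfn2-/- oocytes (log2 fold change -0.66 ± 0.12 (SE), edgeR adjusted p = 0.00216). The cationic amino acid transporter gene Slc7a1 averaged 61 ± 4.63 CPM in Mfn1-/- and 107 ± 4.23 CPM in Mfn2-/- oocytes (log2 fold change -0.81 ± 0.15 (SE), edgeR adjusted p = 0.00321). Atf4 itself (-0.38, edgeR adjusted p = 0.044) and Vldlr (-1.43) were lower too. Between 4 and 6 members were called lower without 1 library.

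Chaperones and unfolded protein response genes had 2 of 34 members higher and 5 lower. Beside Eif2ak3, the disulphide isomerase gene Pdia3 was lower, with 242 ± 11.1 CPM in Mfn1-/- and 329 ± 21.8 CPM in Mfn2-/- oocytes (log2 fold change -0.44 ± 0.08 (SE), edgeR adjusted p = 0.00219). The oxidase gene Ero1lb (-0.48), Hspa5 (-0.41), which encodes BiP, and Sel1l (-0.28) were lower, and Uggt1 (0.43) and Canx (0.30) higher. Calls numbered 4 without Mfn1-/- pool 3, Mfn2-/- pool 1, Mfn2-/- pool 3, WT pool 1 or Mfn1&2-/- pool 2. Of 20 immediate early and heat shock genes, Dnajb1 (0.60), Hspa4l (0.63) and Hsp90ab1 (0.29) were higher and Junb (-2.88) and Dusp1 lower. Dusp1, a dual-specificity phosphatase, averaged 18.8 ± 2.26 CPM in Mfn1-/- and 36 ± 2.74 CPM in Mfn2-/- oocytes (log2 fold change -0.94 ± 0.18 (SE), edgeR adjusted p = 0.00331). Calls in this list numbered 3 without Mfn1-/- pool 2, Mfn1-/- pool 3, Mfn2-/- pool 1, Mfn2-/- pool 2 or Mfn2-/- pool 3.

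Antioxidant and Keap1-Nrf2 genes had 4 of 35 members higher and 2 lower, and 5 of these 6 calls held in all 12 fits. Msrb3 led, and Txnrd1, the cytosolic thioredoxin reductase, had 223, 239.6 and 260.2 CPM in Mfn1-/- and 105, 127 and 134 CPM in Mfn2-/- oocytes (log2 fold change 0.98 ± 0.13 (SE), edgeR adjusted p = 1.79e-04). Txnip, which binds and inhibits thioredoxin, was lower, with 502, 502 and 533 CPM in Mfn1-/- and 951, 779 and 843 CPM in Mfn2-/- oocytes (log2 fold change -0.74 ± 0.10 (SE), edgeR adjusted p = 2.72e-04). Prdx5 (1.28) and Prdx2 (0.42) were higher and Slc7a11 lower. Apoptosis and DNA damage genes had 1 of 27 members called. Chek1, the DNA damage checkpoint kinase, was lower, with 225 ± 8.57 CPM in Mfn1-/- and 368 ± 17.2 CPM in Mfn2-/- oocytes (log2 fold change -0.71 ± 0.09 (SE), edgeR adjusted p = 1.24e-04). Atm did not pass, with 29.5 ± 0.205 CPM in Mfn1-/- and 56.1 ± 20.4 CPM in Mfn2-/- oocytes (edgeR adjusted p = 0.0536). Called members numbered 2 without Mfn2-/- pool 1 and 3 without WT pool 3 or Mfn1&2-/- pool 1. No member was called higher (edgeR; 3 at an unadjusted p below 0.05 and 2 by DESeq2). Among 52 autophagy and mitophagy genes, the initiating kinase gene Ulk1 was higher (0.54, edgeR adjusted p = 0.0295) and Atg12 lower (-0.33, edgeR adjusted p = 0.0295). Neither call held in all 12 fits, and the calls numbered 0 without Mfn1-/- pool 2 or Mfn2-/- pool 3 and 1 without Mfn1-/- pool 3, Mfn2-/- pool 1 or Mfn2-/- pool 2.

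Contact with granulosa cells was represented by 40 adhesion and gap junction genes, 5 higher and 3 lower. Daam1, a formin that nucleates actin, had 711, 1013 and 813 CPM in Mfn1-/- and 288, 248 and 453 CPM in Mfn2-/- oocytes (log2 fold change 1.36 ± 0.24 (SE), edgeR adjusted p = 0.00178). Cgn (cingulin) of tight junctions had 169, 189.8 and 164 CPM in Mfn1-/- and 77.1, 96.3 and 98.7 CPM in Mfn2-/- oocytes (log2 fold change 0.94 ± 0.13 (SE), edgeR adjusted p = 2.72e-04). The connexin gene Gjc1 averaged 10.3 ± 4.69 CPM in Mfn1-/- and 1.92 ± 0.427 CPM in Mfn2-/- oocytes (log2 fold change 2.44 ± 0.50 (SE), edgeR adjusted p = 0.0049). All 3 were without overlap between Mfn1-/- and Mfn2-/- pools, like nearly all called genes. Ocln (0.67) and Pvrl1 (nectin 1; 1.54) were also higher, and Gja4 (-0.38), the connexin gene of the gap junctions between oocyte and granulosa cells, Notch2 (-0.90) and Jag1 (-0.31) lower. Refits without 1 library called 4 without Mfn1-/- pool 2, Mfn1-/- pool 3, Mfn2-/- pool 1 or Mfn2-/- pool 3 and 5 without Mfn1-/- pool 1.

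Secreted signals, their receptors and intracellular members of the Hedgehog, Wnt, Fgf and TGF-beta pathways had 9 of 48 members higher and 3 lower, with a median of 0.22. Among ligands, Tgfb2 was higher, with 679 ± 59.7 CPM in Mfn1-/- and 438 ± 27.5 CPM in Mfn2-/- oocytes (log2 fold change 0.63 ± 0.09 (SE), edgeR adjusted p = 4.79e-04). Fgf10 was lower, with 1.28, 1.57 and 2.58 CPM in Mfn1-/- and 16.5, 9.72 and 11.2 CPM in Mfn2-/- oocytes (log2 fold change -2.79 ± 0.36 (SE), edgeR adjusted p = 2.04e-04), as was Bmp5 (-0.68). Among receptors, Tgfbr3 (betaglycan), which also binds inhibin, was higher, with 110.2 ± 10.1 CPM in Mfn1-/- and 46.2 ± 15.7 CPM in Mfn2-/- oocytes (log2 fold change 1.25 ± 0.20 (SE), edgeR adjusted p = 0.00112). So were Tgfbr1 (0.53), Acvr1 (0.79) and the Hedgehog receptor gene Ptch1 (1.78). The Wnt co-receptor gene Lrp6 was lower, with 445 ± 42.4 CPM in Mfn1-/- and 735 ± 58.6 CPM in Mfn2-/- oocytes (log2 fold change -0.72 ± 0.11 (SE), edgeR adjusted p = 7.85e-04). Gli3 (0.81), Lef1 (0.65), Tcf7l2 (0.75) and Smad3 (0.30), transcription factors of these pathways, were higher. The number called was 5 without Mfn2-/- pool 1 and 7 without Mfn1-/- pool 3. In Kit, PI3K, Foxo3 and mTOR signalling, which controls the waking of dormant oocytes, 1 of 47 was higher (Rps6) and 5 were lower. Beside Pik3cd and Ddit4 these were Tsc2, the AMP kinase subunit gene Prkag1 (-0.48) and Kit. Tsc2, whose product restrains mTOR, averaged 40.01 ± 1.63 CPM in Mfn1-/- and 62.6 ± 7.05 CPM in Mfn2-/- oocytes (log2 fold change -0.64 ± 0.16 (SE), edgeR adjusted p = 0.0137). Without Mfn2-/- pool 2, 3 members were called.

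In the lipid lists, 11.8% of ceramide and sphingolipid genes and 17.9% of cholesterol genes were called, against 13.3% over all genes tested. Ceramide and sphingolipid metabolism had 4 of 34 lower and 0 higher (edgeR; 3 higher at an unadjusted p below 0.05 and 1 by DESeq2), with a median of -0.13. Beside Sgms2, they were Sptlc1 and Sptlc3 (-1.4), subunits of the enzyme that starts ceramide synthesis, and Kdsr (-0.51), which acts in the next step. Sptlc1 averaged 102 ± 5.79 CPM in Mfn1-/- and 143 ± 3.71 CPM in Mfn2-/- oocytes (log2 fold change -0.48 ± 0.09 (SE), edgeR adjusted p = 0.00346). Kdsr lost its call without any one of the 6 pools compared, and the calls numbered 7 without Mfn1&2-/- pool 1. Cholesterol synthesis and uptake had 3 of 39 higher and 4 lower. Nceh1, a cholesterol ester hydrolase, was higher, with 306 ± 29.4 CPM in Mfn1-/- and 188 ± 24.1 CPM in Mfn2-/- oocytes (log2 fold change 0.70 ± 0.11 (SE), edgeR adjusted p = 6.73e-04), as were Idi1 (1.28) and Scap (0.33). Nceh1 lies 5.35 Mb from Mfn1, where linkage to the targeted allele cannot be told apart from an effect of the lost protein. Hsd17b7, an enzyme of cholesterol synthesis, was lower, with 65.5 ± 9.41 CPM in Mfn1-/- and 127 ± 7.47 CPM in Mfn2-/- oocytes (log2 fold change -0.95 ± 0.17 (SE), edgeR adjusted p = 0.00236). Sc5d (-0.61), Npc2 (-0.70) and Vldlr were lower too. The cholesterol list had calls numbering 4 without Mfn1-/- pool 3 or Mfn2-/- pool 2.

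Immune receptors and cytokines had 25 of 62 listed genes in the table, 4 lower and 2 higher. Btla was near 0 in Mfn1-/- and WT oocytes and is in the table through the genotypes where it is high. Its lower call is therefore no separate support for the share. Beside Btla and Cd200, Ddx58 (RIG-I), a sensor of viral RNA, was lower, with 12.3 ± 2.61 CPM in Mfn1-/- and 32.9 ± 3.81 CPM in Mfn2-/- oocytes (log2 fold change -1.42 ± 0.24 (SE), edgeR adjusted p = 0.00137), as was the interferon receptor gene Ifnar1 (-0.56). Mavs (0.58), the mitochondrial adaptor of RIG-I, and Rela (0.49) were higher.

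Markers of the other cells of the ovary were counted next. Of 24 granulosa and cumulus cell markers 13 were in the table and none was called (edgeR; 1 at an unadjusted p below 0.05 and 0 by DESeq2), with a median log2 fold change of 0.08. Their summed level was 546 to 568 CPM in Mfn1-/-, 497 to 600 CPM in Mfn2-/-, 554 to 565 CPM in Mfn1&2-/- and 589 to 1021 CPM in WT pools, the highest in WT pool 3. Without WT pool 3 the number of genes called between the knockouts was 1657. Esr2 had 36.7, 46.9 and 45.9 CPM in Mfn1-/- and 61.2, 51.6 and 55.2 CPM in Mfn2-/- oocytes (edgeR adjusted p = 0.127) and Inhba 0.0752, 3.95 and 4.16 CPM in Mfn1-/- and 0.333, 0.083 and 1.07 CPM in Mfn2-/- oocytes (edgeR adjusted p = 0.233). None of 12 theca and stroma markers was in the table. Of 17 markers of endothelium and blood, 5 were in the table. Flt1 had 7.07, 11 and 6.58 CPM in Mfn1-/- and 28, 30.3 and 34 CPM in Mfn2-/- oocytes (log2 fold change -1.9 ± 0.26 (SE), edgeR adjusted p = 2.72e-04). Kdr averaged 2.31 ± 0.799 CPM in Mfn1-/- and 8.98 ± 2.83 CPM in Mfn2-/- oocytes (log2 fold change -1.95 ± 0.42 (SE), edgeR adjusted p = 0.00688). Both encode receptors of vascular endothelial growth factor and were lower in Mfn1-/- oocytes, while Tie1 was higher. The 5 summed to 139 to 162 CPM in Mfn1-/-, 175 to 184 CPM in Mfn2-/-, 197 to 211 CPM in Mfn1&2-/- and 167 to 172 CPM in WT pools, and no haemoglobin gene of the list was in the table.

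Position relative to the targeted genes was described next. Within 5 Mb of Mfn2, 25 of 82 tested genes (30.5%) were called, 8 higher and 17 lower in Mfn1-/- oocytes, 12 of them more than 2-fold, and within 10 Mb 37 of 160 (23.1%). Within 10 Mb of Mfn1, 11 of 56 (19.6%) were called, and 13.2% of the 11073 genes elsewhere. By chromosome the share ran from 9.8% (chromosome 7) to 17.5% (chromosome 4, which carries Mfn2). When these 10 Mb windows were left out, 1456 genes were called.

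**Figure D5:**
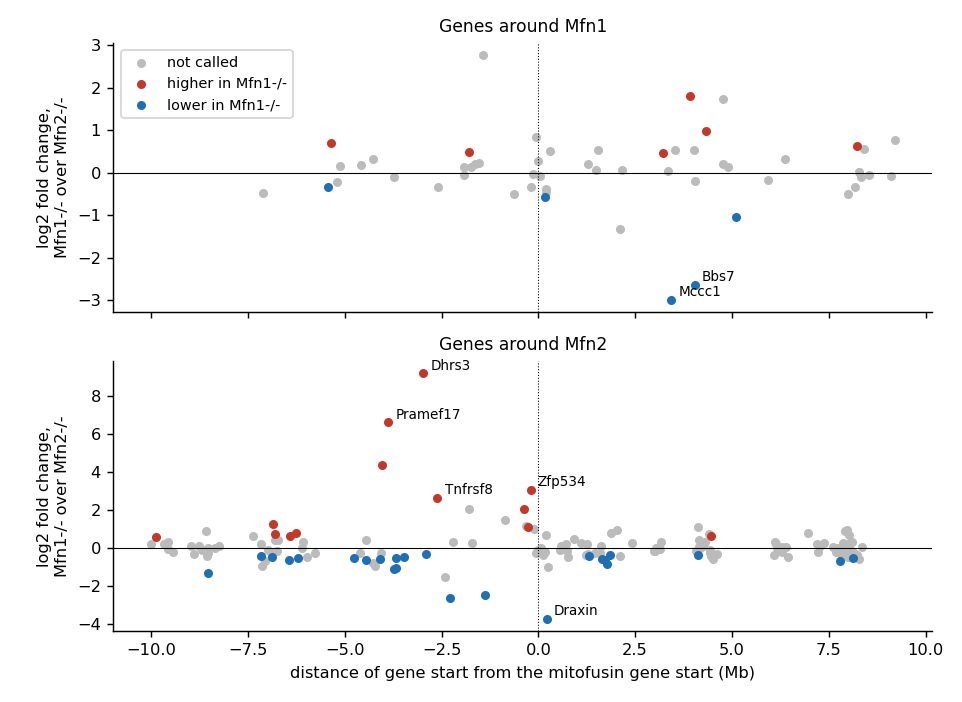
Log2 fold change (Mfn1-/- over Mfn2-/-) of genes by the distance of their start from the start of Mfn1 (top) or Mfn2 (bottom), in Mb, with called genes in colour. Dhrs3, Pramef17 and Tnfrsf8 lie 2.61 to 3.88 Mb from Mfn2 on one side and are higher in Mfn1-/- oocytes, and Draxin lies 0.22 Mb from it on the other side and is lower. Tnfrsf8 was named after its value was seen.

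The genes near Mfn2 moved in both directions. Dhrs3 lies 2.98 Mb from it at chr4:144892827-144928209, Draxin 0.22 Mb at chr4:148098437-148130698 and Pik3cd 1.78 Mb at chr4:149649168-149702571. Zfp534, a zinc finger gene 0.2 Mb from Mfn2, was named after its value was seen. It was higher in Mfn1-/- oocytes, with 9.93, 10.3 and 15.7 CPM in Mfn1-/- and 1.66, 0.83 and 1.74 CPM in Mfn2-/- oocytes (log2 fold change 3.06 ± 0.40 (SE), edgeR adjusted p = 2.09e-04), and averaged 1.4 ± 0.326 CPM in Mfn1&2-/- oocytes and 8.8 ± 2.95 CPM in WT oocytes. A cluster of oocyte-expressed Oog and Prame genes lies between 3.48 and 4.44 Mb from Mfn2. In it Oog2, Oog3 and Oog4 were lower, Pramef12 was lower (-0.49, edgeR adjusted p = 7.50e-04) and Pramef17 was higher in Mfn1-/- oocytes. Pramef12 was named after its value was seen. Near Mfn1, Mccc1 and Bbs7 were named after their values were seen. Mccc1, a subunit of mitochondrial methylcrotonyl-CoA carboxylase 3.43 Mb away, had 0.978, 2.07 and 1.92 CPM in Mfn1-/- and 19.6, 11.2 and 9.17 CPM in Mfn2-/- oocytes (log2 fold change -3.00 ± 0.48 (SE), edgeR adjusted p = 9.96e-04). Bbs7, a subunit of the BBSome 4.04 Mb away, had 1.2, 3.45 and 1.08 CPM in Mfn1-/- and 10.3, 13.5 and 12.7 CPM in Mfn2-/- oocytes (log2 fold change -2.64 ± 0.46 (SE), edgeR adjusted p = 0.00162). Both were lower in Mfn1-/- oocytes. Mccc1 averaged 3.17 ± 1.96 CPM in Mfn1&2-/- oocytes and 13.3 ± 3.13 CPM in WT oocytes, low in both genotypes that lack Mfn1. Linkage to the targeted allele and an effect of the lost protein cannot be told apart in these libraries. The same holds for members of the gene lists in these windows, such as Nceh1 and Hspa4l near Mfn1 and Vps13d and Eif4g3 near Mfn2.

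Genes with large differences also had called neighbours elsewhere. Of the 30 with the largest fold changes, 3 lie within 10 Mb of a mitofusin gene. Of the other 27, 25 (92.6%) had another called gene within 1 Mb, against 76.5% of all genes located outside these windows. The 27 were chosen as called genes, and some, such as Btla and Cd200, are neighbours of each other. Most genes of the other set are uncalled, so the shares are a description and not a like comparison. On chromosome 5, Aff1 (chr5:103692374-103855322), Hsd17b13 (chr5:103955440-103977410), Nudt9 (chr5:104046306-104065379) and Ptpn13 (0.72, edgeR adjusted p = 0.0291) lie within 1 Mb of each other and were all higher in Mfn1-/- oocytes. Ptpn13 was named after its value was seen. Pde6b (chr5:108388391-108432397) and Pcgf3 (chr5:108461232-108506976) lie side by side on the same chromosome with opposite signs, and Bicc1 (chr10:70922832-71159700) and Phyhipl (chr10:70557682-70655965) on chromosome 10 were both lower. For neighbours on overlapping or adjoining spans, reads cannot be assigned with certainty, since the strand setting of the counting is not stated in the sources used here.

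Families defined by symbol were counted last. Of 270 zinc finger genes with Zfp symbols, 23 were higher and 8 lower in Mfn1-/- oocytes (median 0.11, 11.5% called). Of 192 solute carriers, 12 were higher and 21 lower (17.2%). Histone genes had 4 of 37 higher and 2 lower (16.2%), with a median of 0.38, and Rab GTPases 5 of 52 higher and 2 lower (13.5%). The shares of these families ran from 11.5% to 17.2%, around the 13.3% called over all genes tested. Other families counted ranged more widely, from 9.4% of 127 Tmem genes to 35.7% of 14 Nlrp and 37.5% of 8 Olfr genes. The called genes had a median exonic length of 5307 bases where higher and 4846 where lower, against 4663 over all genes tested.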

How the data were processed

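Total RNA of 12 pools of 50 oocytes was depleted of ribosomal RNA and made into stranded libraries with random-primed low-input chemistry, read as 100 bp pairs, per the labels' protocols. Reads were checked with FastQC 0.11.7 and aligned with STAR 2.7.0a, the genome being mm10, and edgeR was used, per the submitters' processing notes. Annotation, strand setting and handling of multiply matching reads are not stated in the sources used here. The deposited counts are raw and cover 11385 genes, each above 1 CPM in at least 3 libraries. The deposited signal table holds TMM-scaled CPM. It matched the CPM used here to a relative 5.1e-15.

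Counts were fitted with edgeR 4.0.16 (glmQLFit, TMM scaling) in R 4.3.3, with 1 mean per genotype over all 12 libraries and 8 residual degrees of freedom. Mfn1-/- was tested against Mfn2-/- by the quasi-likelihood test with Benjamini-Hochberg adjustment over all 11385 genes, and adjusted p below 0.05 is written as called. filterByExpr removed no gene. SEs are from the test statistic, SDs are over 3 pools, and intervals for ratios of summed counts are exact binomial and cover counting error only. Symbols were matched to GENCODE M21 and RefSeq tables (GRCm38), 11291 of 11385 (99.2%) directly or by an older symbol.

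The text names the 15 genes per direction with the largest fold change (at least 5 CPM in one knockout, no overlap, no predicted-gene symbol), the 10 per direction of at least 50 CPM with the smallest p, and up to 4 called members of each list by p, with at most 2 members given where fewer than 2 were called. Other genes are marked as named after their values were seen. A few genes that the rule selects are not reported here. The members, lists and rules were chosen with earlier results of these data known. Alternatives were other scalings, DESeq2 1.42.0, limma-voom (limma 3.58.1), filters, only the 6 libraries, a replicate block, a 1.5-fold threshold test, omission of genes near the mitofusins and omission of each library. The code was tested on simulated data.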

Additional observations from a re-analysis of the deposited data

How the results depend on the processing

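The number of genes called between Mfn1-/- and Mfn2-/- oocytes was 1515 and stayed within 1.5 times of this with RLE scaling (1497), library size alone (1548), DESeq2 (1887, of which 1502 were also called by edgeR), limma-voom (1642), a filter of 5 CPM (1548), the 6 libraries alone (1604) and omission of the 10 Mb windows around the mitofusin genes (1456). Asking for a change of more than 1.5-fold (glmTreat) left 166 genes, 83 in each direction, and 163 of more than 2-fold, which follows from the stricter question. Leaving out 1 library gave 873 to 1673 called genes and 314 to 488 of more than 2-fold, lowest without Mfn1-/- pool 2 and highest without Mfn1&2-/- pool 1. The higher genes were 51.4% of calls with TMM, 53.2% with RLE and 53.6% with library size alone.

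The replicate numbers did not pair the pools: deviations from the group means correlated by -0.089, -0.109 and 0.047 for numbers 1 to 3, and 2 of 6 libraries correlated best with their own number. With the replicate block 1331 genes were called (686 higher, 645 lower) and 442 of more than 2-fold, and the log2 fold changes of Mfn1 and Mfn2 were -3.66 and 2.57.

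No named gene changed sign under any alternative run. Among values of named genes under the alternatives, 197 missed the threshold that the reported value passed, 88 of them with glmTreat, and 4 passed it where the reported value did not. Of the counts per list, 584 stayed within 1.5 times and 120 did not. With 3 pools a group and 3 counts worth 0.188 to 0.253 CPM, differences of genes near that level were not detectable.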
